A study of Mus musculus with 43 samples.

Results

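The genes described are the 10 that encode the precursors of feeding and hypothalamic neuropeptides, namely Npy, Agrp, Pomc, Cartpt, Hcrt, Pmch, Avp, Oxt, Vip and Sst. They were taken by symbol from a table of 42349 entries, each a gene or a set of overlapping genes, and read in its brain columns. Of the 10 genes, 9 had an entry of their own and 1, Agrp, was held only in an entry joined with the predicted gene Gm5914. The study sequenced polyadenylated RNA of brain, liver, skeletal muscle and inguinal white adipose tissue (WAT) from female mice at 15 months of age. Wild-type mice (WT, Irs1+/+) and mice with a global knockout of insulin receptor substrate 1 (KO, Irs1-/-) had been fed ad libitum (AL) or kept since young adulthood on a dietary restriction (DR) of 30%, fed once daily. This gave the groups WTAL, WTDR, KOAL and KODR, with 2 brain libraries of WTAL and 3 of each other group. All groups ate the same chow, and the knockout was present in every cell of the KO mice and not in the brain alone.

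Neuropeptides are cut from larger precursors inside neurons and released to act on receptors of other cells. In the arcuate nucleus of the hypothalamus, neurons that make NPY and AgRP promote feeding, while neurons that make peptides of the Pomc precursor and of Cartpt restrain it, and both populations sense leptin and insulin. The lateral hypothalamus holds the neurons of Hcrt (hypocretin, or orexin) and Pmch (melanin-concentrating hormone), which link feeding with arousal. Large neurons of the paraventricular and supraoptic nuclei make vasopressin (Avp) and oxytocin (Oxt), which are released into the blood from the posterior pituitary. Vip neurons of the suprachiasmatic nucleus belong to the daily clock, and Vip, Sst and Npy are also made by inhibitory interneurons of the cortex and hippocampus. The comparisons ask how these transcripts stood under restriction and in the knockout.

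Each group had a single value in FPKM, a fragment count scaled by transcript length and library size, which can be compared between genes. Summed over all entries, the FPKM came to 502670 in WTAL, 688153 in WTDR, 821354 in KOAL and 592824 in KODR. The part of this in the differences between groups was not tested. Every value is the authors' value for the pooled libraries of a group and is printed with the authors' 95% interval. Values of single libraries were not analysed here, so no spread between mice is given and the depth per library is unknown. Each log2 ratio between groups was tested two-sidedly by Wald, the standard error (SE) following from those intervals, adjusted over all tested entries of the brain by the Benjamini-Hochberg method, and a gene was called differentially expressed at a false discovery rate (FDR) of 10%. Since the test uses a normal reference with 2 or 3 libraries behind each group, differences are given with their SE or 95% interval and by whether they were called, and no p-value of a single gene is printed. The SD behind an interval was between 17.3% and 92.3% of the FPKM for the 9 genes with an entry of their own. In bulk brain tissue, fewer cells of a type and less RNA per cell cannot be told apart.

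The targeted gene was not lower in value in the groups labelled KO. Irs1 stood at 2.47 FPKM in WTAL and 1.62 in WTDR. In the groups labelled KOAL and KODR it stood at 3.49 and 4.14 FPKM. Irs1 was not called in KOAL against WTAL (log2 difference 0.50, SE 0.66). Its level in KODR was called higher than in WTDR (log2 difference 1.35, SE 0.40), but not at an FDR of 5%. Of the 177 entries called in KODR against WTDR, 151 were higher in KODR, and the part of this imbalance in the Irs1 call was not tested. Whether the deleted part of the gene is counted in this entry was not tested, so each direction between genotypes below is a direction between labelled groups. The tissue label held for every group, since the neuronal gene Snap25 lay between 449 and 612 FPKM and the astrocyte gene Gfap between 73.6 and 187. Which region of the brain was dissected is not given in the sources used here.

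Positions are on GRCm38, where Avp and Oxt are neighbours. Oxt (chr2:130576173-130577054, plus strand, 3 exons) and Avp (chr2:130580620-130582554, minus strand, 3 exons) point towards each other with 3565 bases between them. Pomc lies at chr12:3954951-3960642 on the plus strand, Hcrt at chr11:100761069-100762931 on the minus strand, and Vip at chr10:5639218-5647617 on the plus strand. Pmch (chr10:88091072-88092375, plus strand) overlaps Parpbp on the other strand, and how the counting treated strand is not given in the sources used here, so reads of the overlapping pair cannot be told apart. Npy (chr6:49822710-49829507, plus strand), Cartpt (chr13:99898489-99901091, minus strand) and Sst (chr16:23889573-23890958, minus strand) overlap no other gene of the annotation. Agrp (chr8:105566698-105637393, minus strand) overlaps 7 other annotated genes.

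The 250 bases before the start of 9 of the genes were read from RefSeq promoters of GRCm38.p6, and those of the 6 genes with the largest ratio of highest to lowest group value are shown. The intervals are chr2:130575919-130576168 (plus strand) for Oxt, chr2:130582589-130582838 (minus strand) for Avp, chr11:100762932-100763181 (minus strand) for Hcrt, chr10:88090822-88091071 (plus strand) for Pmch, chr12:3954695-3954944 (plus strand) for Pomc and chr10:5638968-5639217 (plus strand) for Vip. Each is written 5′ to 3′ on the strand of its gene. Capitals mark the TATA box TATAAA, the E-box CACGTG to which clock factors bind, TGACC or its reverse complement GGTCA, which form part of the response elements of nuclear receptors, and TGACGTC, the core of the cAMP response element.
Oxt: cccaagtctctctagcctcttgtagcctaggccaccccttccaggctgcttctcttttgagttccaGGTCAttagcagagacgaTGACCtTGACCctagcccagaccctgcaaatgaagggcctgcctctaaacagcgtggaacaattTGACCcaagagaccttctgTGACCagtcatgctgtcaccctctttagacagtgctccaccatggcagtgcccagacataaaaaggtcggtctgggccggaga
Avp: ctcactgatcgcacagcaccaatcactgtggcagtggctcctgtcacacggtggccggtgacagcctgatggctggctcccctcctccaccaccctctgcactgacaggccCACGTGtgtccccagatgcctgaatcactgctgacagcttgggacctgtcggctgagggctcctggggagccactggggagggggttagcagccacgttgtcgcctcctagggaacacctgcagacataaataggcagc
Hcrt: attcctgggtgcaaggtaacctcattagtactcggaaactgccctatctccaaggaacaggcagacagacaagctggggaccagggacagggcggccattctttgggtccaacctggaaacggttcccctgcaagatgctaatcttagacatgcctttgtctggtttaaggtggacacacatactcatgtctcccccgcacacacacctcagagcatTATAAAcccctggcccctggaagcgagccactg
Pmch: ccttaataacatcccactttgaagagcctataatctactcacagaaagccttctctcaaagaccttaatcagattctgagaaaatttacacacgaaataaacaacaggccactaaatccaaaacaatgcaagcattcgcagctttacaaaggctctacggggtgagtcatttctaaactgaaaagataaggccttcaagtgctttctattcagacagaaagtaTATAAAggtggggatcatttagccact
Pomc: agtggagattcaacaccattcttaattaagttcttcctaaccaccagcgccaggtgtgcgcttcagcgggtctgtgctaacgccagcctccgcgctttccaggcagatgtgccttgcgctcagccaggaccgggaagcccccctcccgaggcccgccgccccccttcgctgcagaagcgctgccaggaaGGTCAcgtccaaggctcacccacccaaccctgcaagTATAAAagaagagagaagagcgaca
Vip: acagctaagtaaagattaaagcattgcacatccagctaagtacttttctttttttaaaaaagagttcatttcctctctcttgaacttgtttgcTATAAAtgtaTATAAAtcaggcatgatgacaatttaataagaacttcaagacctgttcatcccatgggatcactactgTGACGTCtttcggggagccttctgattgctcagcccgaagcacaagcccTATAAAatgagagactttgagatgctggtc

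The letters TGACC stood 5 times before Oxt, on either strand, between 184 and 79 bases from the start. Such letters are common, with a copy in 35.2% of 32851 mouse promoters searched over the same length, but 5 or more copies were found in 0.0426% of them. That limit was set by the count of Oxt, which is itself among these promoters, and copies of the other motifs were not counted in this way. Avp held no TGACC and had the E-box between 139 and 134 bases before its start, a motif of 6.02% of promoters. TATAAA, searched on the strand of the gene, lay 33 bases before the start of Hcrt, 27 before that of Pmch, 25 before that of Pomc and 30 before that of Vip, which held 2 further copies upstream, and was present in 7.59% of promoters. Vip also held TGACGTC, a motif of 2.78% of promoters, while the full element TGACGTCA, of 1.55% of promoters and overlapping that core, was found before Cartpt and Sst and before no other of the 9 genes. These matches describe the sequence alone.

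Sst was by far the most abundant of the 10 transcripts, with a mean over the 4 groups of 349 FPKM against 49.2 for Pmch, the next, and its interval lay above that of Pmch in 3 of the 4 groups. Below it the order of the means was Npy (37.8), Avp (36.0), Hcrt (22.6), Oxt (14.8), Cartpt (14.5), Vip (8.54), Pomc (6.46) and the Agrp entry (6.16). The order among these is loose, because neighbours had separate intervals in no group except for Hcrt and Oxt in 1 group and Vip and Pomc in 1 group. Outside the brain the 9 genes with their own entry were nearly silent. Of their 108 values in liver, skeletal muscle and WAT, 53 were listed at 0 and 6 reached 1 FPKM, with a highest value of 1.56 FPKM for Avp in skeletal muscle of KOAL.

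**Figure D1:**
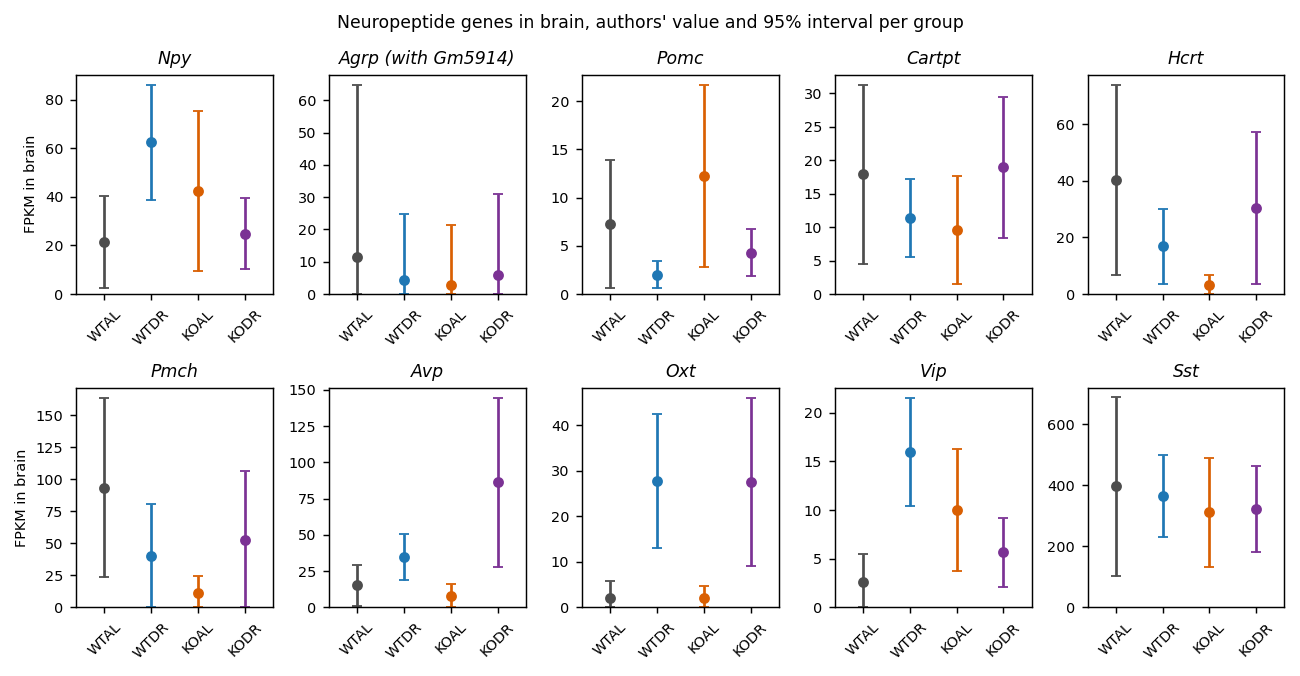
FPKM in brain (vertical axis, each panel from 0 with its own scale) of the 10 neuropeptide genes in WTAL, WTDR, KOAL and KODR, with points for the authors' pooled value and bars for the authors' 95% interval. Oxt stood at 2.01 and 2.06 FPKM in the AL groups and at 27.7 and 27.5 in the DR groups, while Sst lay between 311 and 396 in all 4.

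Among the peptides that promote feeding, Npy had 21.3 FPKM in WTAL (interval 2.34 to 40.2), 62.5 in WTDR (38.8 to 86.2), 42.5 in KOAL (9.54 to 75.5) and 24.9 in KODR (10.2 to 39.6). Its highest value was in the restricted wild type and its lowest in the freely fed wild type, and these intervals still overlapped narrowly. The Agrp entry had 11.5 FPKM in WTAL, 4.35 in WTDR, 2.80 in KOAL and 6.0 in KODR. Its intervals all began at 0, with an SD between 208% and 334% of the FPKM, so that no order of the groups can be read for it. This entry also stood between 0.376 and 4.99 FPKM in the other tissues, where AgRP neurons are absent, and the share of Gm5914 in it cannot be told apart from that of Agrp.

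The lateral hypothalamic peptides Hcrt and Pmch had the same order of groups. Hcrt had 40.3 FPKM in WTAL (6.66 to 73.9), 16.8 in WTDR (3.49 to 30.1), 3.10 in KOAL (0 to 6.59) and 30.3 in KODR (3.47 to 57.1). Pmch had 93.3 FPKM in WTAL (23.6 to 163), 39.8 in WTDR (0 to 80.5), 11.3 in KOAL (0 to 24.3) and 52.2 in KODR (0 to 107). Both were highest in WTAL and lowest in the group labelled KOAL, by 13.0-fold for Hcrt and 8.26-fold for Pmch. The KOAL interval of Hcrt ended below that of WTAL, and all other intervals of these genes overlapped.

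The values of the 2 genes for peptides that restrain feeding stood in different orders of groups, though both were lower in WTDR than in WTAL. Pomc, whose precursor yields the melanocortins, had 7.26 FPKM in WTAL (0.628 to 13.9), 2.00 in WTDR (0.610 to 3.38), 12.3 in KOAL (2.82 to 21.7) and 4.30 in KODR (1.83 to 6.78). Its values were lower in the DR group than in the AL group of each genotype, and its 4 intervals overlapped each other. Cartpt had 17.9 FPKM in WTAL (4.53 to 31.3), 11.4 in WTDR (5.55 to 17.2), 9.59 in KOAL (1.5 to 17.7) and 19.0 in KODR (8.44 to 29.5). These 4 intervals of Cartpt overlapped each other, and its highest and lowest values were 1.98-fold apart.

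The neurohypophysial hormones were higher in value under DR, and Oxt was the only one of the 10 genes whose intervals were apart between the diets in both labelled genotypes. Oxt had 2.01 FPKM in WTAL (0 to 5.71), 27.7 in WTDR (13.1 to 42.4), 2.06 in KOAL (0 to 4.58) and 27.5 in KODR (9.11 to 45.9). Both DR groups lay above both AL groups with no overlap of intervals, and the genotypes were nearly equal within a diet. Avp had 15.2 FPKM in WTAL (0.996 to 29.4), 34.6 in WTDR (18.5 to 50.7), 7.94 in KOAL (0 to 16.2) and 86.2 in KODR (28.1 to 144). Its DR values were also above its AL values, but only KOAL had an interval clear of the DR groups.

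Vip, a clock and interneuron peptide, had 2.57 FPKM in WTAL (0 to 5.51), 16.0 in WTDR (10.4 to 21.5), 9.99 in KOAL (3.69 to 16.3) and 5.65 in KODR (2.11 to 9.18). Its groups stood in the order of Npy, and its WTDR interval lay above those of WTAL and KODR. Sst, the marker of a large interneuron class that also inhibits growth hormone release, had 396 FPKM in WTAL (102 to 690), 365 in WTDR (230 to 500), 311 in KOAL (131 to 491) and 322 in KODR (180 to 464). Its values differed by at most 1.27-fold, with all intervals overlapping.

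Under DR in the wild type (WTDR against WTAL), no member was called by the Wald test at the FDR of 10%, against 34 of 15164 entries, or 0.224%. The largest differences were those of Oxt and Vip. Oxt was 13.8-fold higher in value (log2 difference 3.79, SE 1.39) and Vip 6.21-fold (log2 difference 2.63, SE 0.86). Npy had a log2 difference of 1.56 (SE 0.70) and Pomc of -1.86 (SE 0.83). These 4 genes were the members with an unadjusted p below 0.05, a limit passed by 2.22% of entries, and Oxt and Vip were the 2 whose intervals did not overlap, as in 0.64% of entries. The authors' interval can also be read as the spread of single libraries, in which case the SE shrinks with the number of libraries. With this smaller SE the same 4 members were called, against 1.73% of entries. The median difference was -0.39 over the members and -0.08 over all entries, and WTAL rests on 2 libraries.

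Under DR in the labelled knockout (KODR against KOAL), Avp and Oxt were called up-regulated, 2 of 10 members against 56 of 15349 entries, or 0.365%. Avp was 10.9-fold higher (log2 difference 3.44, SE 0.89) and Oxt 13.4-fold (log2 difference 3.74, SE 1.01). Hcrt was 9.77-fold higher in value and was not called (log2 difference 3.29, SE 1.03). Pmch had a log2 difference of 2.21 (SE 1.12) and Pomc of -1.51 (SE 0.69). These 5 genes passed an unadjusted p of 0.05, as 2.51% of entries did, and all 5 were called with the smaller SE, against 4.33% of entries. Only the intervals of Avp and Oxt did not overlap among the members, as in 0.723% of entries. The median difference was 1.04 over the members and 0.03 over all entries. At an FDR of 5% Avp passed and Oxt did not.

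In the freely fed genotypes (KOAL against WTAL), no member was called by the Wald test, against 31 of 15264 entries, or 0.203%. Hcrt came nearest, 13.0-fold lower in KOAL (log2 difference -3.70, SE 1.01), and Pmch followed (log2 difference -3.05, SE 0.99). Vip was 3.89-fold higher in value in KOAL (log2 difference 1.958, SE 0.94). These 3 had an unadjusted p below 0.05, as 1.81% of entries did. With the smaller SE Hcrt and Pmch were called, against 1.41% of entries, and the intervals of Hcrt alone were apart, as in 0.432% of entries. Hcrt was also called with a pseudocount of 1 FPKM, with a filter of at least 5 FPKM and after centring on the median of all entries (0.13), so that its place beside the threshold depends on these choices. Oxt was level between these groups (log2 difference 0.04, 95% interval -3.10 to 3.17) and Sst had a log2 difference of -0.35 (-1.68 to 0.98).

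Between the restricted genotypes (KODR against WTDR), no member was called by the Wald test, although calls were most frequent here, with 177 of 15262 entries, or 1.16%. Vip was 2.83-fold lower in value in KODR (log2 difference -1.5, SE 0.52) and Npy 2.51-fold lower (log2 difference -1.33, SE 0.51). Avp was 2.49-fold higher in value (log2 difference 1.32, SE 0.59). These 3 passed an unadjusted p of 0.05, as did 7.5% of entries, and with Pomc they were the 4 called with the smaller SE, against 18.5% of entries. Only Vip had intervals apart, as had 1.95% of entries. Oxt differed by -0.01 on the log2 scale (95% interval -1.22 to 1.19), and a difference of up to about that size in either direction is compatible with its intervals. Of the 177 entries called, 151 were higher in KODR, and after centring on the median of all entries (0.23) 62 were higher and 44 lower.

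Between the long-lived models themselves (KOAL against WTDR), Pomc was called higher and Oxt lower in KOAL, 2 of 10 members against 88 of 15255 entries, or 0.577%. Oxt was 13.5-fold lower (log2 difference -3.75, SE 0.96) and Pomc 6.14-fold higher (log2 difference 2.62, SE 0.75). The call of Pomc was lost without the filter on low values, after centring on the median of all entries (0.18) and at an FDR of 5%, and its intervals in these groups overlapped. Avp was 4.36-fold lower in value (log2 difference -2.12, SE 0.82) and Hcrt 5.42-fold lower (log2 difference -2.44, SE 0.99). These 4 had an unadjusted p below 0.05, against 3.54% of entries. With the smaller SE they were called with Pmch, 5 members against 6.59% of entries, and Avp and Oxt had intervals apart, as did 0.878% of entries. Over all entries 74 were called higher and 14 lower, and 44 and 18 after centring.

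The interaction, the KO to WT ratio under DR divided by that ratio under AL and given as a log2 value, tests whether DR acted alike in the labelled genotypes. No member was called by the Wald test, against 62 of 15655 entries, or 0.396%. Hcrt had the largest interaction (log2 value 4.55, SE 1.33), since its DR value was below its AL value in WT and above it in KO, and Pmch had the same sign (3.44, SE 1.44). Vip (-3.46, SE 1.07) and Npy (-2.33, SE 0.99) had the opposite sign, with a DR value above the AL value in WT and below it in KO. These 4 passed an unadjusted p of 0.05, as did 3.53% of entries, and with Avp they were the 5 called with the smaller SE, against 5.15% of entries. Hcrt was also called with a pseudocount of 1. Oxt had an interaction of -0.05 (95% interval -3.41 to 3.31), so that differences of several doublings between the genotypes in its response are not excluded. The comparisons share groups, and a high or low value of a group enters each comparison that uses it.

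**Figure D2:**
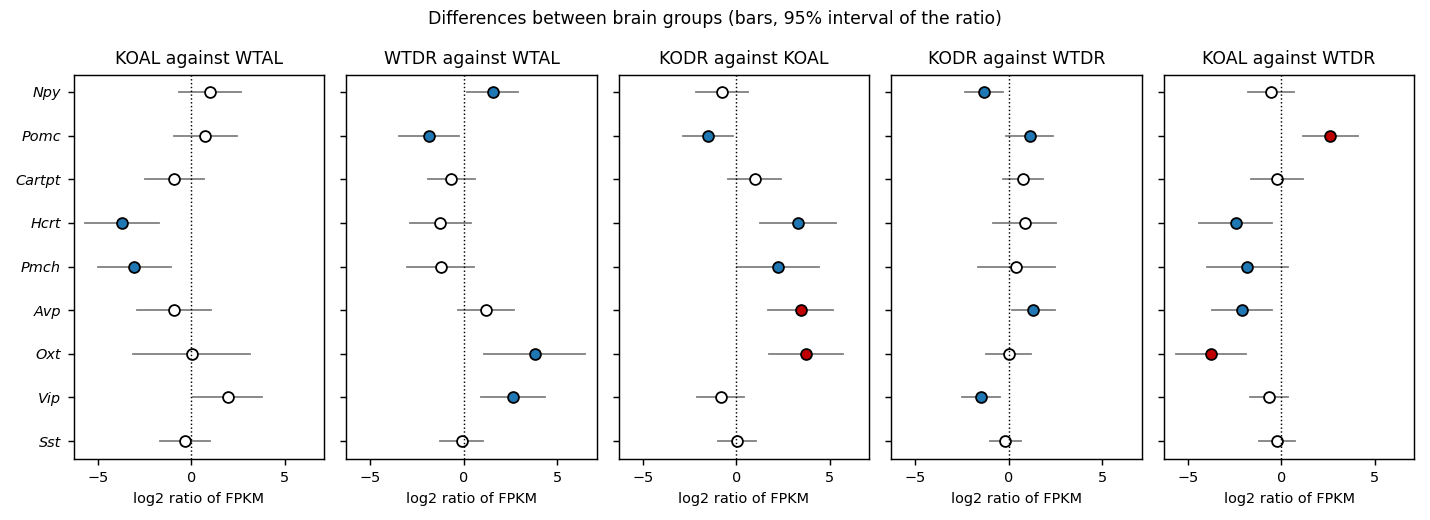
Log2 ratio of FPKM (horizontal axis) of 9 neuropeptide genes in 5 comparisons of brain groups, with points for the ratio of the first named group to the second and bars for the 95% interval of the ratio. Red points passed the FDR of 10% (Avp and Oxt in KODR against KOAL, Pomc and Oxt in KOAL against WTDR), blue points passed only with the smaller SE, and white points passed neither. The joined Agrp entry is left out because its SE is too large for the axis.

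Markers of the hypothalamus had their lowest summed level in KOAL. Lists of region and cell markers were summed in each group as a check of the tissue. The 16 hypothalamus markers summed to 32.0 FPKM in WTAL, 22.4 in WTDR, 16.0 in KOAL and 32.6 in KODR, and 10, 6, 4 and 8 of them reached 1 FPKM. Among them Nkx2-1, a transcription factor of the ventral hypothalamus, had 1.75, 1.49, 0.45 and 1.32 FPKM in that order, and Otp, a factor of neuroendocrine neurons, had 2.87, 2.29, 0.95 and 3.32. Six3 went the other way between the AL groups, with 4.89, 8.27, 7.23 and 9.15 FPKM in the same order. In KOAL against WTAL, 9 of the 10 tested markers lay below the all-entry median difference and 1 above it. None of the list was called in any comparison by the Wald test. At an unadjusted p below 0.05 the counts were 2 of 10 tested, both lower, in KOAL against WTAL (1.81% of all entries) and 1 of 10, lower, in WTDR against WTAL (2.22%). They were 1 of 8, higher, in KODR against KOAL (2.51%), 1 of 8, higher, in KODR against WTDR (7.5%), 0 of 6 in KOAL against WTDR (3.54%) and 3 of 10, all higher, in the interaction (3.53%). The median difference of the tested markers was -1.77 in KOAL against WTAL, beside 0.13 for all entries, and 1.54 in KODR against KOAL, beside 0.03. The order of the sums, lowest in KOAL and high in WTAL and KODR, is near that of Hcrt and Pmch, and its part in their differences was not tested.

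The members were also set against the summed hypothalamus markers, a scaling chosen after the values were seen that has no test. In KOAL against WTAL, where the sum differed by -1.0 on the log2 scale, Vip came to 2.96, Npy to 2.00, Pomc to 1.75 and Oxt to 1.04, while Hcrt came to -2.70 and Pmch to -2.05. In KODR against KOAL, where the sum differed by 1.03, Oxt came to 2.71, Avp to 2.41 and Hcrt to 2.26, while Pomc came to -2.54, Vip to -1.85 and Npy to -1.80. In WTDR against WTAL, Oxt came to 4.30, Vip to 3.14 and Npy to 2.07. In KOAL against WTDR, Pomc came to 3.11 and Oxt to -3.26, and in KODR against WTDR the values lay between -2.04 for Vip and 0.78 for Avp. The sum leans on its most abundant gene, Six3, which gave 7.23 of the 16.0 FPKM in KOAL, and the median marker differed by more than the sum in KOAL against WTAL and in KODR against KOAL, so these values depend on how the markers are combined.

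Markers of other regions also differed between groups. The 7 midbrain dopamine markers summed to 99.5 FPKM in WTAL, 18.7 in WTDR, 31.2 in KOAL and 73.1 in KODR. The dopamine transporter Slc6a3 had 16.1, 0.10, 0.31 and 7.34 FPKM and was called in all comparisons except KOAL against WTDR, where it was not tested for its low values. These genes mark dopamine neurons of the ventral midbrain. Th, En1, Ddc and Slc18a2 were called higher with Slc6a3 in KODR against WTDR (5 of 6 tested, against 1.16% of all entries). The same 5 of 6 were called with positive values in the interaction (0.396% of all entries). Th and Slc18a2 were called lower with Slc6a3 in WTDR against WTAL (3 of 6 tested, against 0.224%). The 8 cerebellum markers summed to between 39.8 and 49.4 FPKM in the other groups and to 162 in KODR, where Cbln3 and Car8 were called higher than in either KOAL or WTDR and Cbln1 higher than in WTDR. Choroid plexus markers summed to 194, 68.9, 75.6 and 334 FPKM, of which Kl was called higher in KODR than in WTDR.

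Among pituitary markers, the hormone genes Gh and Prl had 3.97 and 11.7 FPKM in WTAL and at most 0.19 and 0.90 in the other groups, and Tshb was listed at 0 in all. Neither Gh nor Prl was called in any comparison by the Wald test, and both had an unadjusted p below 0.05 in WTDR against WTAL and in KOAL against WTAL. Interneuron markers, which bear on Sst, Vip and Npy, summed to 446, 415, 511 and 591 FPKM. Of these, 1 of 10, the calcium-binding protein gene Pvalb, was called, higher in KODR than in WTDR (1.16% of all entries). At an unadjusted p below 0.05, 2 were lower in WTDR against WTAL (2.22%) and 2 higher in KODR against WTDR (7.5%). In KOAL against WTDR 1 was higher (3.54%), and 2 had positive values in the interaction (3.53%). The 7 measured striatum markers summed to 161, 294, 356 and 235 FPKM with none called. At an unadjusted p below 0.05 there were 2, higher, in WTDR against WTAL (2.22% of all entries), 1, higher, in KOAL against WTAL (1.81%) and 3, lower, in the interaction (3.53%). All 7 lay above the all-entry median difference in WTDR and in KOAL against WTAL. All 7 lay below it in KODR against KOAL, in KODR against WTDR and in the interaction, and 4 lay above it in KOAL against WTDR. Olfactory bulb markers summed to 115, 47.9, 93.6 and 109 FPKM, and the only called member of that list, Th, also stands among the dopamine markers. The 9 markers of major brain cell classes had no call. Of these, 1 was higher at an unadjusted p below 0.05 in KOAL against WTAL (1.81% of all entries). At that limit 2 were higher in KOAL against WTDR (3.54%) and 1 was lower in the interaction (3.53%). The part of these regional differences in the values of the neuropeptides was not tested.

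**Figure D3:**
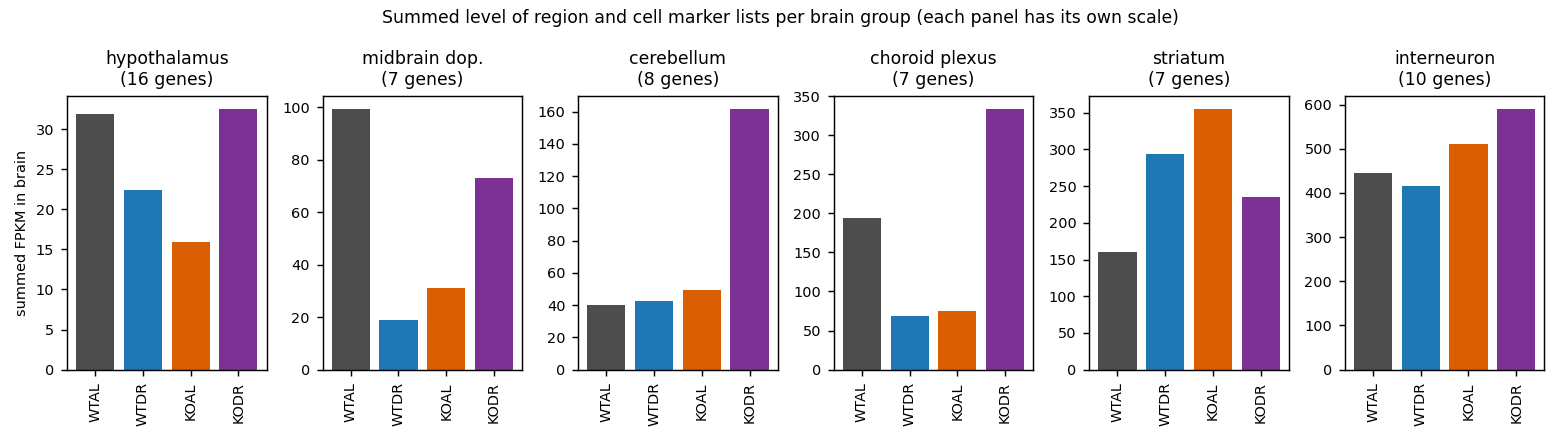
Summed FPKM in brain (vertical axis from 0, own scale in each panel) of 6 marker lists in WTAL, WTDR, KOAL and KODR, with a bar for each group and the number of genes summed under each title. Hypothalamus markers were lowest in KOAL (16.0), midbrain dopamine markers lowest in WTDR (18.7) and cerebellum markers highest in KODR (162).

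The likeness of patterns was measured as the distance between log2 FPKM values centred over the 4 brain groups, among 13511 entries with at least 1 FPKM in each. The entry nearest to Hcrt was Pmch, at a distance of 0.770, followed by joined entries of Hsp90b1 and Ephx1. The entry nearest to Oxt was Avp, at 1.86, a looser match, with Avp at 34.6 FPKM in WTDR and 86.2 in KODR where Oxt had 27.7 and 27.5. The nearest to Pmch after the Ephx1 entry were Gm18699 and Gabrq, a GABA receptor subunit, at distances up to 0.711, so Hcrt was not among its 3 nearest. The nearest to the Agrp entry was Mrap2 (0.193), but no order of the groups can be read for that entry, so this match has no meaning of its own. Npy had Rasgef1c, Sumo2 and Hnmt nearest, Avp had Gm23257, Dcdc2a and the cerebellum marker Car8, Pomc had Rps15a, Gm26673 and Rpl17-ps10, and Vip had Snora7a, Rps21 and a Serpina entry. Vip shared the order of groups of Npy and stood at rank 1132 among the entries nearest to Npy. Its distance to Npy, 0.859, was close to the 0.770 between Hcrt and Pmch, so ranks cannot be compared between genes. A distance over 4 values describes the shape alone.

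**Figure D4:**
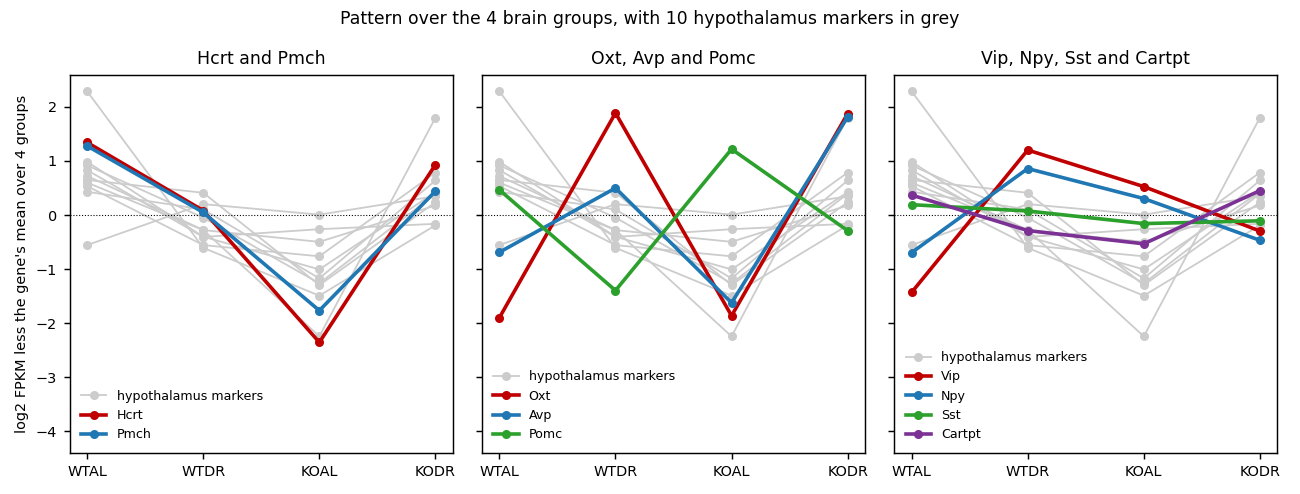
Log2 FPKM less the gene's own mean over the 4 brain groups (vertical axis) in WTAL, WTDR, KOAL and KODR for 9 neuropeptide genes, with 10 hypothalamus markers in grey. Hcrt and Pmch run together and are lowest in KOAL, Oxt is high in both DR groups, Pomc is highest in KOAL, and Sst is nearly flat.

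The receptors of these peptides showed no call. Of 20 receptor genes, 12 to 16 were tested in a comparison and none passed the FDR of 10% by the Wald test, with at most 1 at an unadjusted p below 0.05 in any comparison. The NPY receptors Npy1r and Npy2r lay between 4.10 and 6.71 FPKM and between 4.63 and 8.10 FPKM. The melanocortin receptor Mc4r, through which Pomc peptides restrain feeding, lay between 0.85 and 1.49 FPKM and Mc3r between 0.72 and 1.19. Chosen after their values were seen, the hypocretin receptor Hcrtr1 had 2.46, 0.89, 1.34 and 2.15 FPKM in WTAL, WTDR, KOAL and KODR, the oxytocin receptor Oxtr 1.43, 2.31, 1.91 and 2.01, and the VIP receptor Vipr1 1.77, 6.52, 6.69 and 4.01. Vipr1 was the receptor with an unadjusted p below 0.05 in WTDR against WTAL (log2 difference 1.88, SE 0.85) and in the interaction (-2.62, SE 1.31). Sstr1, a somatostatin receptor gene also chosen after its values were seen, had 17.5, 9.29, 26.4 and 19.9 FPKM and was the receptor at that limit in KOAL against WTDR (2.84-fold higher, SE 0.45 on the log2 scale, intervals apart) and in KODR against WTDR (log2 difference 1.10, SE 0.39).

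Among 10 receptors and effectors of peripheral appetite signals, none was called in any comparison by the Wald test. The leptin receptor Lepr lay between 0.62 and 1.24 FPKM and the insulin receptor Insr between 4.36 and 7.11. The ghrelin receptor Ghsr had 0.93 and 0.74 FPKM in WTAL and KODR against 0.10 and 0.12 in WTDR and KOAL, below the 1 FPKM needed for a test. Stat3, which acts below the leptin receptor, lay between 15.1 and 31.7 FPKM. Mrap2, a partner of melanocortin receptors chosen after its values were seen, had 20.6, 7.27, 5.42 and 11.9 FPKM, with an interaction of 2.63 (SE 0.77). It was the list's only gene with an unadjusted p below 0.05 in every comparison where the list had any, except KODR against WTDR, where that gene was Sh2b1, also named after its values were seen.

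The genes of the machinery that cuts and packs peptide precursors all reached 1 FPKM in every group, at levels that differed widely between genes. All 11 genes of that list were tested in each comparison, and 2 were called, both higher in KODR than in WTDR, where 1.16% of all entries were called. These were Pcsk1n, an inhibitor of the convertase PC1 (log2 difference 1.26, SE 0.38), and the granule protein gene Chga (0.95, SE 0.29). Neither passed an FDR of 5%, and 151 of the 177 entries called in that comparison were higher in KODR. The convertases Pcsk1 and Pcsk2 lay between 4.72 and 5.58 FPKM and between 48.5 and 62.6 FPKM, and the carboxypeptidase gene Cpe between 358 and 463. Chgb, a granule protein gene chosen after its values were seen, had 71.9, 238, 107 and 164 FPKM in WTAL, WTDR, KOAL and KODR. It was not called, but its WTDR interval lay above that of WTAL (3.32-fold, log2 difference 1.73, SE 0.49) and that of KOAL (log2 difference -1.16, SE 0.38, for KOAL against WTDR). In the other 5 comparisons none was called, with at most 1 gene at an unadjusted p below 0.05 in each.

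Of 26 other neuropeptide genes, 16 to 18 were tested in a comparison and none was called by the Wald test, with at most 1 in each direction at an unadjusted p below 0.05. Trh, which drives the thyroid axis, had 16.8, 9.83, 10.3 and 19.2 FPKM in WTAL, WTDR, KOAL and KODR. Crh, which drives the adrenal axis, had 2.36, 3.14, 5.57 and 3.00. Ghrh was listed at 0 in WTDR and KOAL and stood at 0.61 and 0.52 in WTAL and KODR. Galp was listed at 0 in all 4 groups, and Gal had 1.41, 1.07, 0.36 and 2.43 FPKM. The list's median difference was 0.59 in KODR against KOAL, beside 0.03 for all entries, and 0.41 in WTDR against WTAL, beside -0.08.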

How the data were processed

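RNA of 43 libraries in 16 groups (4 tissues) was sequenced on an Ion Proton system. The authors trimmed reads with cutadapt 1.5 and sickle, aligned them to GRCm38 with BBmap and ran Cuffdiff 2.2.1 with normalisation by geometric means, and deposited a table of FPKM values with 1 pooled value, 95% interval and status per group. Of the 42349 entries, 873 join several genes. No values per library were used here. Samples were grouped by their labels.

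From the deposited FPKM of the 11 brain libraries' 4 groups, the SD was taken as the distance from the FPKM to the upper bound, divided by 2, and the SE of a log2 ratio followed from the delta method. Entries were tested when all groups compared were above 0 FPKM and at least 1 reached 1 FPKM. The two-sided Wald test used a normal reference and Benjamini-Hochberg adjustment within each of 6 comparisons. Per group, the SD of the median entry came to between 27.2% and 45.7% of its FPKM.

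The members and the 13 gene lists were chosen with earlier results of these data known. A gene of the pituitary list, and sums and counts that need it, are not reported here. Named genes are all members, Irs1, list genes that passed the FDR, up to 6 others per list in list order, the 3 entries most like each member that varied at least 2-fold, and those said to be chosen after their values were seen. Positions come from the GENCODE annotation and promoters from RefSeq, which held 9 of the 10 genes. Each result was recomputed in 8 ways that changed the FDR, the SE, the pseudocount, the filter, the centring, the calling rule or the joined entries. Software was Python 3.11.15, with scipy 1.17.1 and statsmodels 0.14.6 for the tests, pandas 2.3.3 and numpy 2.4.6 for the tables, and matplotlib 3.10.9 for the figures.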

Additional observations from a re-analysis of the deposited data

How the results depend on the processing

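Of 461 member values recomputed under 8 other settings, 425 kept their direction and their side of the threshold, 30 passed it newly, 5 no longer passed it and 1 reversed, which was Oxt in KOAL against WTAL after centring (-0.0942). With the smaller SE the members called were 2 in KOAL against WTAL, 4 in WTDR against WTAL, 5 in KODR against KOAL, 4 in KODR against WTDR, 5 in KOAL against WTDR and 5 in the interaction. By intervals that do not overlap they were 1 in KOAL against WTAL, 2 in WTDR against WTAL, 1 in KODR against WTDR, 2 in KODR against KOAL (Avp and Oxt, as before) and 2 in KOAL against WTDR (Avp and Oxt in place of Pomc and Oxt). In KOAL against WTAL, 1 member was called with a pseudocount of 1 (47 of all entries), 1 with a filter of 5 FPKM (35) and 1 after centring (31), and in the interaction 1 with a pseudocount of 1 (73). At an FDR of 5%, 1 member was called in KODR against KOAL (49 of all entries) and 1 in KOAL against WTDR (74), where 1 was also called without a filter (83) and 1 after centring (62). Over all entries the calls ranged from 27 to 215 in KOAL against WTAL, 31 to 262 in WTDR against WTAL, 49 to 664 in KODR against KOAL, 106 to 2826 in KODR against WTDR, 62 to 1006 in KOAL against WTDR and 41 to 807 in the interaction. For all of these except the smaller SE, whose construction narrows every interval, and the FDR of 5%, the cause was not tested.

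No paired analysis was possible because the deposited columns hold pooled groups with no replicate numbers, and for the same reason leaving out each replicate was not run. Depth per library is unknown, the WTAL group rests on 2 libraries, and which of the readings of the authors' interval is right was not tested.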
